A study of Zea mays with 10 samples.

Results

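KANADI genes encode GARP-type transcription factors that specify abaxial, or lower, cell identity in lateral organs. *kan1* (GRMZM2G056400) and *mwp1* (*milkweed pod1*, GRMZM2G082264), 2 KANADI genes among the 109874 genes of the expression table, are described here. They were chosen by identity, *kan1* by its gene identifier and *mwp1* by its symbol, and their RPKM values in both genotypes were already known when they were chosen. These values are therefore given as a description, with no test.

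In *Arabidopsis*, KANADI proteins act largely as repressors and oppose the adaxial, or upper, determinants of the HD-ZIP III class. The leaf blade grows out where both domains meet. In maize, *mwp1* is required for abaxial patterning of the leaf, and the role of a gene named *kan1* is known from *Arabidopsis*. The pathway disrupted in *lbl1* feeds into the same network, as the trans-acting siRNAs called tasiR-ARFs restrict transcripts of *ARF3* genes, also abaxial determinants, to the lower side. The comparison of the genotypes asks how transcript levels of the abaxial KANADI determinants stand in an apex that forms abaxialized leaves.

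RNA was sequenced from 2 *lbl1* and 2 wild-type samples of maize vegetative apices. Each apex was dissected at an age of 2 weeks and included the youngest leaf primordia beside the shoot meristem. *lbl1* plants (genotype LBL1 -/-) carried the *lbl1-rgd1* allele introgressed into B73, the inbred line of the maize reference genome. The study names the wild type (WT) as B73, and its methods describe families that segregated the allele after at least 3 introgressions into B73. Whether the sequenced wild-type plants were siblings of the mutants is not stated. The deposited table gives 1 RPKM value (read numbers corrected for transcript length and for the reads mapped) per genotype over its 2 samples, so no SD can be given and no difference can be set against the variation among samples. How many reads each sample had was not analysed here, and the values are printed without their depth. Small RNA samples, 3 of *lbl1* and 3 of wild type, were not used here.

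Over the table, 29929 genes reached 1 RPKM in *lbl1* or wild type. The median log2 ratio of *lbl1* to wild type was −0.10 over the 24760 genes at 1 RPKM or more in both genotypes, and ratios are also given relative to this median. In the mutant, the *lbl1* gene (GRMZM2G020187, chromosome 6, 17165362 to 17171793) gave 226 RPKM, against 301 RPKM in wild type. Of the 6 shoot meristem markers looked up, all reached 1 RPKM, with *kn1* at 123 RPKM in *lbl1* and 69.3 RPKM in wild type. The summed RPKM of these 6 genes was 259 in *lbl1* and 168 in wild type. The 4 leaf primordium markers found summed to 103 RPKM in *lbl1* and 95.1 RPKM in wild type. Of 5 markers of expanded photosynthetic leaf, *PEP1* was listed at 0 in both genotypes, and together they summed to 86.7 RPKM in *lbl1* and 52.8 RPKM in wild type. The 3 root markers summed to 69.9 RPKM in *lbl1* and 67.9 RPKM in wild type. Among them *rth1* was at 38.0 RPKM in *lbl1* and 43.5 RPKM in wild type. *rth3* (GRMZM2G377215) was at 31.6 RPKM in *lbl1* and 24.1 RPKM in wild type. *rtcs*, which controls root initiation, was at 0.350 RPKM in *lbl1* and 0.240 RPKM in wild type.

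The transcript of *kan1* was at 0.282 RPKM in *lbl1* and 4.06 RPKM in wild type. This is a log2 ratio of −3.85, or 14.4-fold lower in *lbl1*, and −3.75 relative to the median gene. The *kan1* locus lies on chromosome 1 from 215606266 to 215611664 on B73 RefGen_v2, and no other annotated gene overlaps it. In *lbl1* its level was below that of all but 4.55% of the genes at 1 RPKM or more in either genotype, whereas in wild type 30.97% of these genes were lower. With a pseudocount of 1 RPKM, the log2 ratio of *kan1* was −1.98, because its *lbl1* value is close to 0.

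The transcript of *mwp1* was at 3.84 RPKM in *lbl1* and 6.97 RPKM in wild type. It was thus lower in *lbl1* by a log2 ratio of −0.86, which is 1.81-fold, and by −0.76 relative to the median gene. *mwp1* lies on chromosome 7 from 107233099 to 107239726, again without an overlapping gene. Of the genes at 1 RPKM or more in either genotype, 31.3% were lower than *mwp1* in *lbl1* and 41.0% were lower in wild type. The mutant retained a ratio of 0.551 of the wild-type *mwp1* level, against 0.0694 for *kan1*. On the log2 scale the ratio of *kan1* minus that of *mwp1* was −2.99. This difference between the 2 genes could not be tested, as only 1 value per genotype is given.

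Cuffdiff, the program that made the table, lists a test as run for *kan1* and *mwp1*. Another KANADI gene of the table, *kan3* (GRMZM2G175827, chromosome 4, 80073206 to 80086056), is listed as not tested, a status given to genes with too few alignments. *kan3* was at 1.02 RPKM in *lbl1* and 1.64 RPKM in wild type, a log2 ratio of −0.69 that is 1.61-fold lower in *lbl1*. Like *kan1*, it is named after its *Arabidopsis* relatives. The symbols *kan2* and *kan4* matched no gene.

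**Figure D1:**
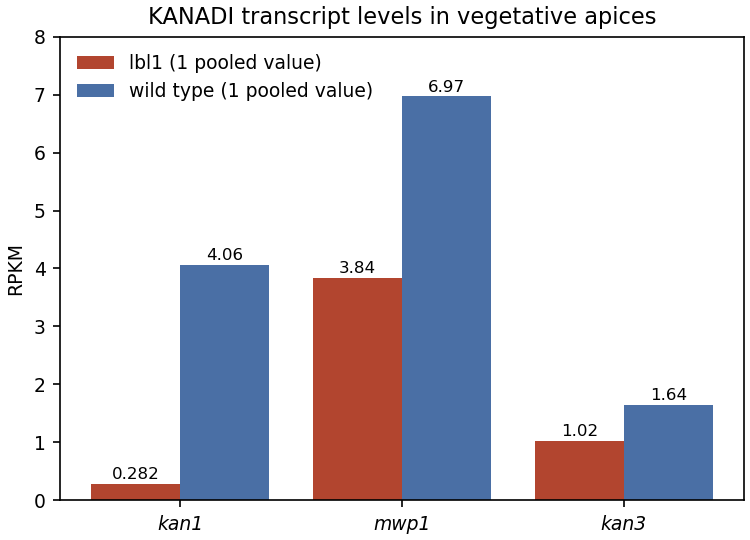
RPKM of *kan1*, *mwp1* and *kan3* (vertical axis) in *lbl1* apices (left bar of each pair) and wild-type apices (right bar), each bar being 1 value that pools 2 samples, with no error. Every *lbl1* bar is the lower of its pair, and the *kan1* bar of *lbl1* is the lowest of all at 0.282 RPKM.

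RPKM is scaled to transcript length, so levels can be set side by side between the genes. In *lbl1* the order was *mwp1*, *kan3*, *kan1*, and in wild type it was *mwp1*, *kan1*, *kan3*. *kan1* and *kan3* thus changed places, and *mwp1* had the highest level in both genotypes. Without values per sample, which neighbours in this order differ beyond their spread is not known. The *mwp1* level was 13.6 times that of *kan1* in *lbl1* and 1.72 times in wild type. Between *mwp1* and *kan3* the ratio of levels was 3.77 in *lbl1* and 4.24 in wild type.

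Summed over the 3 genes, KANADI RPKM was 5.14 in *lbl1* and 12.7 in wild type, a log2 ratio of −1.30. *kan1* made up 5.48% of this sum in *lbl1* and 32.0% in wild type. The share of *mwp1* was 74.7% in *lbl1* and 55.0% in wild type, and that of *kan3* was 19.8% and 13.0% in *lbl1* and wild type. Of the summed RPKM of these 3 genes in the mutant apex, *mwp1* thus made up most. KANADI genes without such a symbol would be missing from this sum. In whole apices, fewer cells that transcribe a gene and less RNA per cell cannot be told apart.

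The study's methods required a 2-fold difference together with a corrected p-value. Here the fold alone was applied, so the counts are not calls by the study's rule. At 2-fold, 1 of the 3 KANADI genes, *kan1*, was lower in *lbl1* and none was higher. Over all genes at 1 RPKM or more, 12.9% were at least 2-fold lower and 12.6% at least 2-fold higher in *lbl1*, 25.4% in either direction. A lower level at 1.5-fold was shared by all 3 KANADI genes and by 23.6% of all genes. The median log2 ratio of the 3 genes was −0.86, that of *mwp1*, against −0.10 over all 29929 genes.

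Ratios scatter more widely among genes at low levels, so the members were also set beside genes of like level, the 7995 genes whose higher value lay between 2 and 8 RPKM. Of these, 19.0% were at least 2-fold lower in *lbl1*. A log2 ratio as low as that of *kan1* or lower was found for 475 of them, which is 5.94%, and for 4.21% of all genes at 1 RPKM or more. Of those 475, 423 were listed at 0 in *lbl1* and 52, *kan1* among them, were above 0. For *mwp1* the same shares were 22.6% of the genes of like level and 15.7% of all genes. The *mwp1* ratio therefore lay well inside the range common at its level, while that of *kan1* lay in its lower tail.

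**Figure D2:**
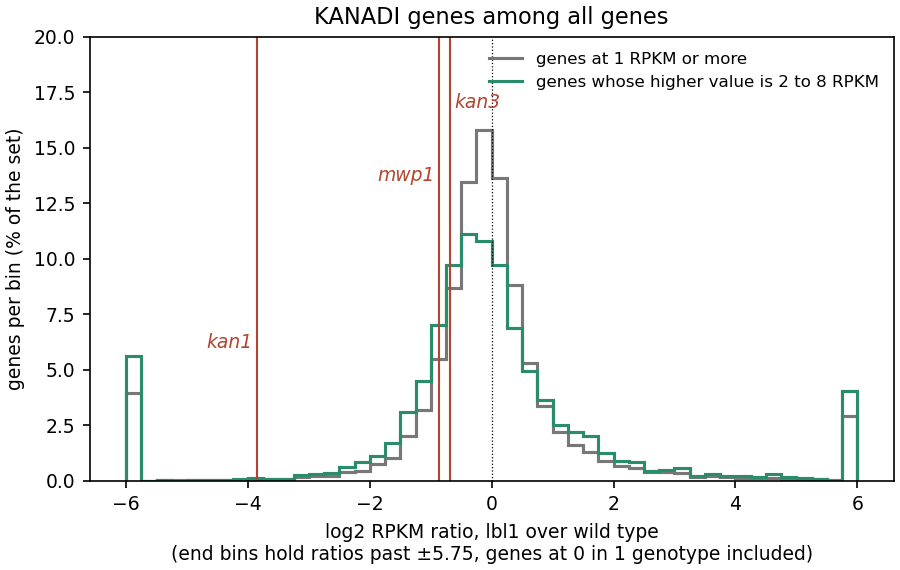
Share of genes (vertical axis, percent of each set) by log2 RPKM ratio of *lbl1* over wild type (horizontal axis, bins of 0.25) for genes at 1 RPKM or more in either genotype (grey) and genes whose higher value is 2 to 8 RPKM (green), with vertical lines at *kan1*, *mwp1* and *kan3*. *mwp1* at −0.86 and *kan3* at −0.69 lie on the shoulder of both distributions, and *kan1* at −3.85 lies far to the left; the bins at the ends also hold genes listed at 0 in 1 genotype.

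The other abaxial determinants, the 5 *ARF3* genes targeted by tasiR-ARFs, stood on the opposite side. None was lower in *lbl1*, and 4 of 5 were at least 2-fold higher, beside 12.6% of all genes at 1 RPKM or more. Their median log2 ratio was 1.36. The highest ratio was that of *arf3d* (GRMZM2G437460, named *ARF12* in the table), at 138 RPKM in *lbl1* and 45.2 RPKM in wild type. The lowest was that of *arf3b* (GRMZM2G441325), at 46.7 RPKM in *lbl1* and 38.0 RPKM in wild type. Summed *ARF3* RPKM was 79.1 times that of the 3 KANADI genes in *lbl1* and 14.1 times in wild type. The *ARF3* genes and the KANADI genes found thus differed in the sign of their ratios under the scalings tried.

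HD-ZIP III genes, the adaxial determinants that oppose KANADI in *Arabidopsis*, were found by symbol for *rld1* and *rld2*. *rld1* (*rolled leaf1*, GRMZM2G109987) was at 64.7 RPKM in *lbl1* and 117 RPKM in wild type, a log2 ratio of −0.85. Another annotated gene overlaps it. *rld2* (GRMZM2G042250) was at 49.1 RPKM in *lbl1* and 67.6 RPKM in wild type, a log2 ratio of −0.46, and its test is listed as failed. Neither gene reached 2-fold, which 25.4% of all genes at 1 RPKM or more did in either direction. The ratio of *rld1* was close to that of *mwp1*, so that an adaxial and an abaxial determinant were lower in *lbl1* by similar factors.

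YABBY genes act in blade outgrowth and mark the abaxial side in *Arabidopsis*, whereas *yab9* and *yab14* are adaxially expressed in maize. Of 7 YABBY genes, 1 was at least 2-fold higher in *lbl1* and none was 2-fold lower, with a median log2 ratio of 0.10. Over all genes at 1 RPKM or more, 12.6% were at least 2-fold higher and 12.9% at least 2-fold lower, so these counts do not set the family apart. *yab9*, at 1.97 times its wild-type level in *lbl1*, also passed 2-fold when ratios were taken relative to the median gene. The extremes were *YAB6* (GRMZM2G074124), at 22.3 RPKM in *lbl1* and 6.91 RPKM in wild type, and *YAB3* (GRMZM2G106204), at 17.8 RPKM in *lbl1* and 28.1 RPKM in wild type. The *YAB6* locus overlaps 3 other genes. The family thus spread to both sides of 0. All 3 KANADI genes lay below 0, as did the HD-ZIP III genes found and 16855 of the 29929 genes at 1 RPKM or more.

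*LBD6*, the maize counterpart of the *Arabidopsis* adaxial gene *AS2*, which KANADI1 represses there, was at 13.8 RPKM in *lbl1* and 23.0 RPKM in wild type, a log2 ratio of −0.74. Its locus overlaps another gene. *rs2*, which encodes the MYB partner of this protein class, was at 39.0 RPKM in both genotypes, and the sign of its log2 ratio depended on the scaling, at −0.00 before and 0.10 after subtraction of the median. *rgd2*, which encodes the ARGONAUTE7 needed for tasiR-ARF formation, was at 3.53 RPKM in *lbl1* and 9.10 RPKM in wild type, a log2 ratio of −1.37. Of the 18 genes in the polarity lists other than KANADI, 5 were at least 2-fold higher and 1, *rgd2*, at least 2-fold lower. Over all genes at 1 RPKM or more, 12.6% were at least 2-fold higher and 12.9% at least 2-fold lower. The log2 ratio of *kan1*, −3.85, lay below those of all 18. Its *lbl1* level of 0.282 RPKM was also below theirs, and ratios scatter more widely at low levels.

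**Figure D3:**
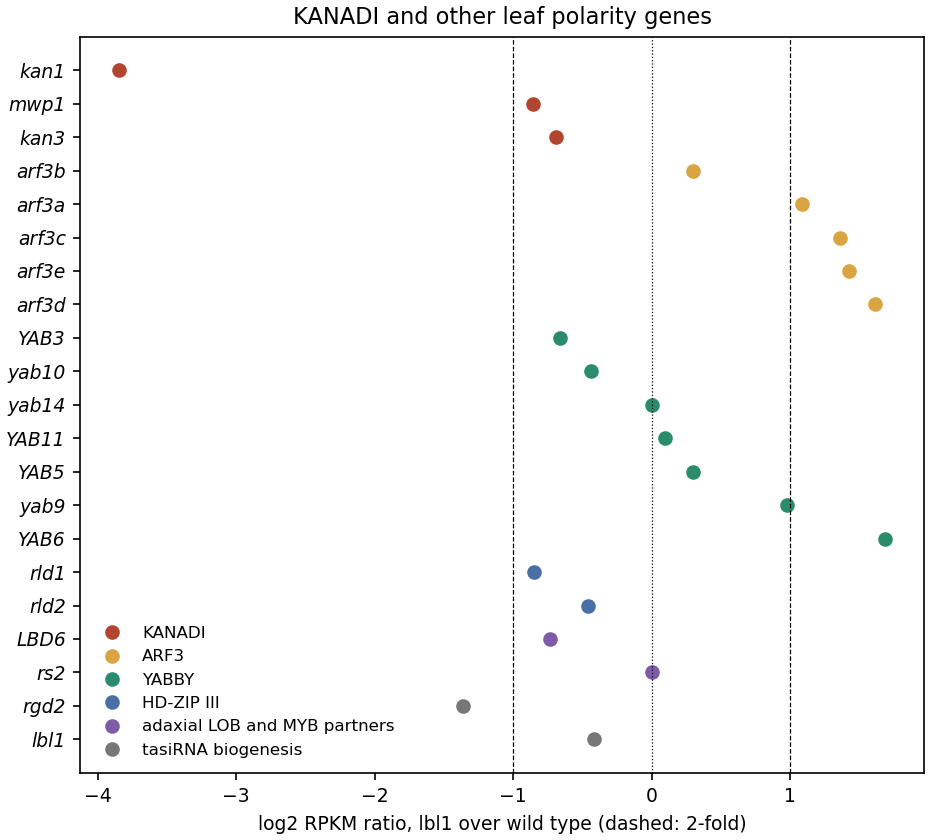
Log2 RPKM ratio of *lbl1* over wild type (horizontal axis) for each gene of the KANADI, *ARF3*, YABBY, HD-ZIP III, adaxial LOB and MYB, and tasiRNA biogenesis lists (rows, coloured by list), 1 point per gene from 1 pooled value per genotype, with dashed lines at 2-fold. All 3 KANADI points lie left of 0 and all 5 *ARF3* points right of 0, while the YABBY points lie on both sides.

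Among the 956 named genes above 0 RPKM in both genotypes, those most like each member were found by the distance between their 2 log2 RPKM values. Nearest to *kan1* was *WOX3A* (GRMZM2G069028, also *narrow sheath1*), a homeobox gene of the leaf margin, at 0.380 RPKM in *lbl1* and 2.67 RPKM in wild type and a distance of 0.743. *ppr10* and *GST5* followed at distances of 1.69 and 1.80. *ppr10* was at 0.713 RPKM in *lbl1* and 1.99 RPKM in wild type, so the second neighbour among these named genes was much less reduced than *kan1*. Genes without a deposited symbol were not searched, and some of them may lie closer. Near *mwp1* were *G9008*, *EZ3* and *A1* at distances of 0.136, 0.266 and 0.273. *G9008* was at 3.97 RPKM in *lbl1* and 6.38 RPKM in wild type. The likeness rests on only 2 values per gene.

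The genes around each KANADI locus were examined as well. *kan1*, *mwp1* and *kan3* are on chromosomes 1, 7 and 4, none on chromosome 6 with *lbl1*. The allele was introgressed at least 3 times into B73, and whether sequence of the donor line remained at these loci was not tested. Within 1 Mb on each side of *kan1*, 29 other genes reached 1 RPKM in either genotype, with a median log2 ratio of 0.12. Over all genes at that level, 12.9% were at least 2-fold lower and 12.6% at least 2-fold higher in *lbl1*. Of the 29, 1 was at least 2-fold lower and 3 at least 2-fold higher. The 1 lower gene was the nearest on the side of smaller coordinates, AC199826.4_FG001 (chromosome 1, 215554468 to 215554665), a model of 198 bp that ends 51.6 kb from *kan1*. It was listed at 0 in *lbl1* and at 3.43 RPKM in wild type, so no fold is given. On the other side the nearest gene, GRMZM5G887940, which shares its locus with another gene, begins 151 kb away and was at 11.0 RPKM in *lbl1* and 6.09 RPKM in wild type.

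Around *mwp1*, 13 genes within 1 Mb reached 1 RPKM, and none was 2-fold lower while 3 were 2-fold higher in *lbl1*. Its nearest such neighbours were GRMZM2G067752, at 50.9 RPKM in *lbl1* and 44.4 RPKM in wild type, and GRMZM2G100796, at 10.4 RPKM in *lbl1* and 14.3 RPKM in wild type. Around *kan3*, 1 of 20 genes was at least 2-fold lower and 5 were 2-fold higher. Of the loci near its own, AC191795.3_FG001 was at 1.84 RPKM in *lbl1* and listed at 0 in wild type, and GRMZM2G045944 was at 39.9 RPKM in *lbl1* and 35.0 RPKM in wild type. Of the KANADI genes found, only *kan1* was itself at least 2-fold lower in *lbl1*. Most genes near each KANADI locus were not 2-fold lower, nor were most genes elsewhere. Over all genes at 1 RPKM or more, 12.9% were at least 2-fold lower and 12.6% at least 2-fold higher.

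**Figure D4:**
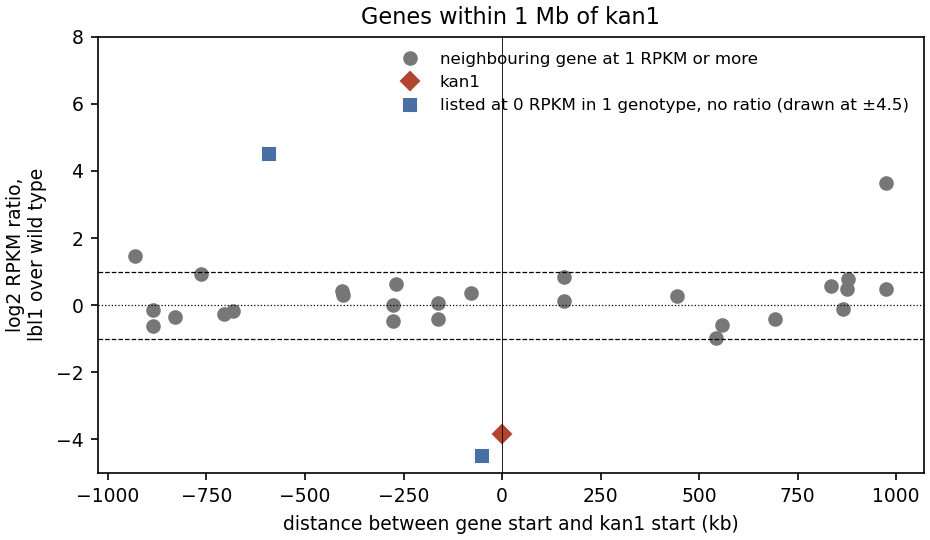
Log2 RPKM ratio of *lbl1* over wild type (vertical axis, dashed lines at 2-fold) for the 29 genes at 1 RPKM or more within 1 Mb of *kan1*, against the distance of their start from that of *kan1* in kb (horizontal axis); squares are genes listed at 0 in 1 genotype, drawn at a fixed height because they have no ratio. *kan1*, at −3.85, stands below its neighbours with a ratio, and the gene next to it is listed at 0 in *lbl1*.

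Markers differed between the genotypes beside these results. Of the 6 meristem markers, 4 were higher and 2 lower in *lbl1*. *kn1* made up much of their sum, and *td1* (GRMZM2G300133) was at 2.53 RPKM in *lbl1* and 5.54 RPKM in wild type, while *fea2* was at 15.8 RPKM in *lbl1* and 20.3 RPKM in wild type. The 4 markers of expanded leaf above 0 were all higher in *lbl1*, 2 of them at least 2-fold, beside 12.6% of all genes at 1 RPKM or more. The 4 primordium markers had a median log2 ratio of 0.00. Among them *WOX3A* was 7.03-fold lower in *lbl1*, *yab9* was at 21.4 RPKM in *lbl1* and 10.9 RPKM in wild type, *yab14* was at 42.7 RPKM in *lbl1* and 42.6 RPKM in wild type, and *rs2* was at 39.0 RPKM in both. The part of such differences in tissue makeup in the KANADI ratios was not tested.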

How the data were processed

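Total RNA from vegetative apices was made into TruSeq libraries, 2 per genotype. The authors trimmed the reads, aligned them with TopHat 1.2.0 to the B73 RefGen_v2 assembly and to junctions of its annotated exons, and used uniquely mapped reads. The RPKM values in the deposited table were made by the authors with Cuffdiff 1.0.3, with a minimum alignment count of 50 for a test, as 1 value per genotype over its 2 samples. A word per gene in the deposited table, used here as an other kind of value, says whether Cuffdiff ran its test. The table's fold change, p-value and q-value columns hold the authors' own comparison and were not used. Because values are pooled, no SD, count test or test across samples was possible, and depth could not be recovered from low values, since transcript lengths are not in the table.

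Ratios are *lbl1* over wild type with no pseudocount. A gene was counted when it reached 1 RPKM in either genotype and its ratio reached 2-fold, a gene at 0 in 1 genotype included. Percentiles are the shares, among all genes at 1 RPKM or more in either genotype, that had a lower value. Symbols came from the deposited table (1665 genes) and, where it had none, from RefSeq synonyms of Zm-B73-REFERENCE-NAM-5.0, which matched 18777 identifiers. *ARF3* genes were listed by identifier. The symbols *phb*, *rev*, *drl1*, *drl2* and *ns2* also matched no gene. Table starts count from 0, so 1 was added. The members and lists were chosen with earlier results of these data known. Named genes are the members, the other KANADI gene, the extremes of each polarity list, *lbl1*, marker genes, the 3 named genes nearest each member in both values, and the nearest gene on each side. The alternatives varied the pseudocount, scaling, RPKM minimum and fold. Calculations were tested on simulated data and run in Python 3.11.15 with pandas 2.3.3, numpy 2.4.6 and matplotlib 3.10.9.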

Additional observations from a re-analysis of the deposited data

How the results depend on the processing

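*kan1* and *mwp1* were lower in *lbl1* under each of the 4 alternatives tried. Scaling to the median gene, to the 75th percentile or to an equal sum moved neither across 2-fold, with log2 ratios from −3.88 to −3.75 for *kan1* and from −0.89 to −0.76 for *mwp1*. A pseudocount of 1 RPKM brought *kan1* to −1.98, since it weighs most on a value near 0, and *mwp1* to −0.72. The number of KANADI genes at the fold criterion, 1 at 2-fold, was 3 at 1.5-fold and 0 with a minimum of 5 RPKM, which only *mwp1* reached. Over all genes, 7610 differed at least 2-fold; without the RPKM minimum the number was 19276, with a minimum of 5 RPKM 3526, at 1.5-fold 12791 and at 4-fold 3712. For the other polarity lists, alternatives chosen after seeing the data gave 10 genes at 1.5-fold, 0 at 4-fold and 7 relative to the median gene, where *yab9* was added, against 6 at 2-fold. No paired analysis was possible because the table pools the samples of a genotype into 1 value, and for the same reason no sample could be left out. The pooled values also give neither the spread between samples nor the number of reads behind the *kan1* value of 0.282 RPKM.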

Other observations

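KANADI proteins belong to the GARP family, which also holds the GOLDEN2-like factors. The genes named *GLK* with a number were listed by name alone, after values had been seen, and their values are given as a description. The name does not settle which are GOLDEN2-like factors, and *GLK17* (GRMZM2G006477) is also named *PHR1*. Of 10 such genes, 9 reached 1 RPKM in either genotype, of which 7 were lower and 2 higher in *lbl1*, with a median log2 ratio of −0.62. Over all 29929 genes at that level, 16855 were lower in *lbl1* and the median was −0.10. At 2-fold, 2 of the 9 were lower and 1 was higher, beside 12.9% lower and 12.6% higher over all genes. *GLK23* (GRMZM2G039074, chromosome 1) was at 0.542 RPKM in *lbl1* and 3.39 RPKM in wild type, and *GLK41* (GRMZM2G090230) at 1.45 RPKM in *lbl1* and 3.10 RPKM in wild type. *GLK44* (GRMZM2G124540) was at 14.7 RPKM in *lbl1* and 5.63 RPKM in wild type. *Glk1*, a relative of *golden2*, was at 0.904 RPKM in *lbl1* and 1.61 RPKM in wild type. The *GLK41* and *GLK44* loci each overlap another gene. Summed RPKM of the 10 genes was 85.2 in *lbl1* and 95.9 in wild type. *GLK52* (GRMZM2G124495) was at 0.578 RPKM in *lbl1* and listed at 0 in wild type, and it stayed under 1 RPKM in both genotypes.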
